A study of Mus musculus with 12 samples.

Results

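Precursor tRNA reads were the small RNA reads that the annotation assigned to the precursor tRNA classes of the nuclear and mitochondrial tRNA databases. They were chosen by class name alone, and their genome-matched and unmatched reads were added together. They made up 7 of the 1401 class and subclass rows found over the 12 libraries, namely 2 class totals and 5 subclass rows. The 5 subclass rows were the nuclear precursors of Tyr-GTA, Arg-TCT, Leu-CAA and Ile-TAT (named by amino acid and anticodon) and a row for the 5′ end of the Tyr-GTA precursor. That last row held 1 read, in the second Ang OE library, and has no further values here. The mitochondrial precursor class had 0 rows in the 12 libraries, so no level was computed for it.

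The study asked whether diet alters sperm small RNAs and whether AMPK inhibition and angiogenin, a ribonuclease that cleaves tRNA, act on them in Sertoli cells. Mature epididymal sperm of C57BL6/J mice were compared between a control diet (CD, 16% of kcal from fat) and a high-fat diet (HFD, labelled 69% of kcal from fat, a share at odds with the lower one in the study's methods), both fed for 7 weeks from 4 weeks of age (a figure legend of the study gives a later start). Each of the 3 libraries per diet pooled 3 sperm samples. TM4, an established mouse Sertoli cell line, was sequenced untreated (Ctrl), after 10 µM of the AMPK inhibitor Compound C (CC) for 12 h, and with the full-length coding sequence of Ang overexpressed from a plasmid (Ang OE), with 2 libraries each. The labels do not say that the Ctrl cells carried an empty vector or solvent, and CC and Ang OE were compared with the same 2 Ctrl libraries.

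tRNA genes are transcribed by RNA polymerase III as precursors with extra bases at both ends. RNase P removes the 5′ leader, RNase Z the 3′ trailer, and a CCA tail is then added. A few vertebrate tRNA families also carry a short intron just behind the anticodon, which the TSEN endonuclease cuts out before the exons are joined. Reads assigned to a precursor but not to the mature tRNA may carry sequence that maturation removes. The deposited counts do not show which bases these reads cover. Precursor rows were found for 4 isoacceptors, so the precursors of other tRNAs are not measured here.

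The 12 libraries held 31710445 to 64038150 clean reads, of which 69.0% to 76.3% matched the genome and 5.92% to 32.9% were rRNA. Levels are given as reads per 1000000 (RPM) of the clean reads that were not rRNA, and 3 reads, the limit that a count of 0 allows, corresponded to 0.0503 to 0.130 RPM. Marker microRNAs differed between the sources. Summed over 5 epithelial microRNAs (the mir-200 family), all 5 with reads in every sperm library, sperm held 4480 to 7580 RPM and TM4 0.719 to 1.55 RPM, with 2 to 4 of the 5 detected. Over 6 microRNAs of testis germ cells the sums were 1515 to 4024 RPM in sperm and 550.0 to 1334 RPM in TM4. Over 3 red blood cell microRNAs they were 6749 to 13352 and 547 to 822 RPM, and over 3 white blood cell microRNAs 279 to 712 and 1.45 to 2.42 RPM, with all 3 of each detected in every sperm library and 2 or 3 in TM4. The smooth muscle pair mir-143 and mir-145a went the other way, at 15332 to 29689 RPM in sperm and 29770 to 79792 RPM in TM4. Whether these other cells contributed to the sperm values below was not tested. Small RNA libraries do not measure the mRNAs that define Sertoli cells.

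The 4 named precursors belonged to isoacceptors whose mouse genes carry an intron. A search of the GRCm39 genome placed 22 intron-bearing genes in these families, 10 for Tyr-GTA and 4 each for Arg-TCT, Leu-CAA and Ile-TAT, and 12 of the 22 lay on chromosome 13. The genes were 85 to 87 bases long for Arg-TCT, 86 to 93 for Tyr-GTA, 93 to 96 for Ile-TAT and 105 to 107 for Leu-CAA. The 22 introns, 12 to 23 bases long, were all distinct, whereas joined exons were shared in some families, with 2 distinct ones among the 4 Ile-TAT genes and 5 among the 10 Tyr-GTA genes, and 4 among the 4 genes each of Arg-TCT and Leu-CAA. The deposited rows name an isoacceptor and not a gene, so the gene behind a read is not known. RefSeq lists 403 nuclear tRNA genes on GRCm38.p6. Outside these families and the long-armed Leu and Ser tRNAs, 3 of 340 exceeded 76 bases, and those 3, named Ile-AAT there, were 3 of the 4 genes placed here as Ile-TAT. RefSeq also names another Arg-TCT gene of 74 bases, which leaves no room for an intron.

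All 4 Arg-TCT genes are shown, since this precursor was the one called in Ang OE cells and had the largest difference between sperm and TM4 of the 4, with 1 gene from chromosome 13 for each of the other families. Each is written 5′ to 3′ in the sense of the tRNA, with the intron in capitals, from the GRCm39 genome.
Arg-TCT, chr11:69014308-69014394, minus strand: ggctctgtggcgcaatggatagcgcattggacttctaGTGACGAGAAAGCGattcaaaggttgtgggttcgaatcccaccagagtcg
Arg-TCT, chr13:22101332-22101417, minus strand: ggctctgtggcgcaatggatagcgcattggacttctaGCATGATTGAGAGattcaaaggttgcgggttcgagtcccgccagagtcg
Arg-TCT, chr19:11988952-11989037, minus strand: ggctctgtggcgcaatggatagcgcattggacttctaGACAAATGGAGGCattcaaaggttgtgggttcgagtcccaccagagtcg
Arg-TCT, chr3:122086597-122086681, minus strand: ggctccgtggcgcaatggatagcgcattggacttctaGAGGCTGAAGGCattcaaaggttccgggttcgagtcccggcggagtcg
Tyr-GTA, chr13:23609816-23609904, minus strand: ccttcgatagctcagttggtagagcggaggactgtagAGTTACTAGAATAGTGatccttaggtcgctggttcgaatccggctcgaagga
Leu-CAA, chr13:21384374-21384478, plus strand: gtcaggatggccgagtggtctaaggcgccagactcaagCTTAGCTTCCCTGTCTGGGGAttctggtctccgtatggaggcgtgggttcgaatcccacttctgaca
Ile-TAT, chr13:22081108-22081201, minus strand: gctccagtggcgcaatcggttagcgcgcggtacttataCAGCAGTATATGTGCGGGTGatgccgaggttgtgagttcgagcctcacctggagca

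By the GENCODE annotation of that build, the chromosome 11 Arg-TCT gene lies opposite an exon of Hes7 and the chromosome 3 gene lies in an intron of Bcar3, on its other strand, and in an exon of the lncRNA Gm17494. The Arg-TCT genes of chromosomes 13 and 19 and the Tyr-GTA gene are intergenic, and the Leu-CAA gene lies opposite an intron of the lncRNA Gm61135. The Ile-TAT gene lies opposite an exon of the lncRNA Gm40830 and in an intron of the lncRNA Gm56563. It also overlaps an exon of Mir1983. Of the 1005 mouse microRNA hairpins that RefSeq lists on GRCm38.p6, this was the single one overlapping a nuclear tRNA gene. Its hairpin of 132 bases, chr13:21896918-21897049 on the minus strand of GRCm38.p6, holds the whole tRNA gene at positions 19 to 112, with 18 bases before it and 20 after. The annotated mature miR-1983 lies at positions 100 to 120, so its first 13 bases are the end of the tRNA and its last 8 lie behind it, and the 21-base sequence occurs at 1 place in GRCm39. It stands in capitals within the hairpin, from RefSeq.
mmu-mir-1983: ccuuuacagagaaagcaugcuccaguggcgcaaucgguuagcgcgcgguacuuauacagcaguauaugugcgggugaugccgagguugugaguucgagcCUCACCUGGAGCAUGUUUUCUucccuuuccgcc

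Reads of the precursor class, all from 4 isoacceptors, were scarce in sperm and more abundant in TM4 cells. Sperm libraries held 117, 114 and 88 precursor reads (CD) and 124, 121 and 165 (HFD), which is 4.32, 4.81 and 3.18 RPM for CD and 4.45, 5.25 and 5.89 RPM for HFD. TM4 libraries held 2106 and 2140 precursor reads (Ctrl), 1606 and 1278 (CC) and 1251 and 1455 (Ang OE), or 42.1 and 35.9, 31.1 and 26.8, and 25.2 and 26.7 RPM. All 6 sperm libraries lay below all 6 TM4 libraries, as they did for 41% of all features. An edgeR fit of 39 class totals, added after the data were seen, called 87.2% of them between the sources, 35.9% as lower in sperm. The sperm mean was 4.65 ± 0.921 RPM (SD, n = 6) against 31.3 ± 6.55 RPM in TM4 (SD, n = 6), a 6.73-fold difference (exact permutation test, two-sided, p = 0.00216, the smallest p this design allows, and 0.00433 after Benjamini-Hochberg adjustment over the 4 such tests run). These means pool both diets and all TM4 treatments, so the SDs include differences between those groups.

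**Figure D1:**
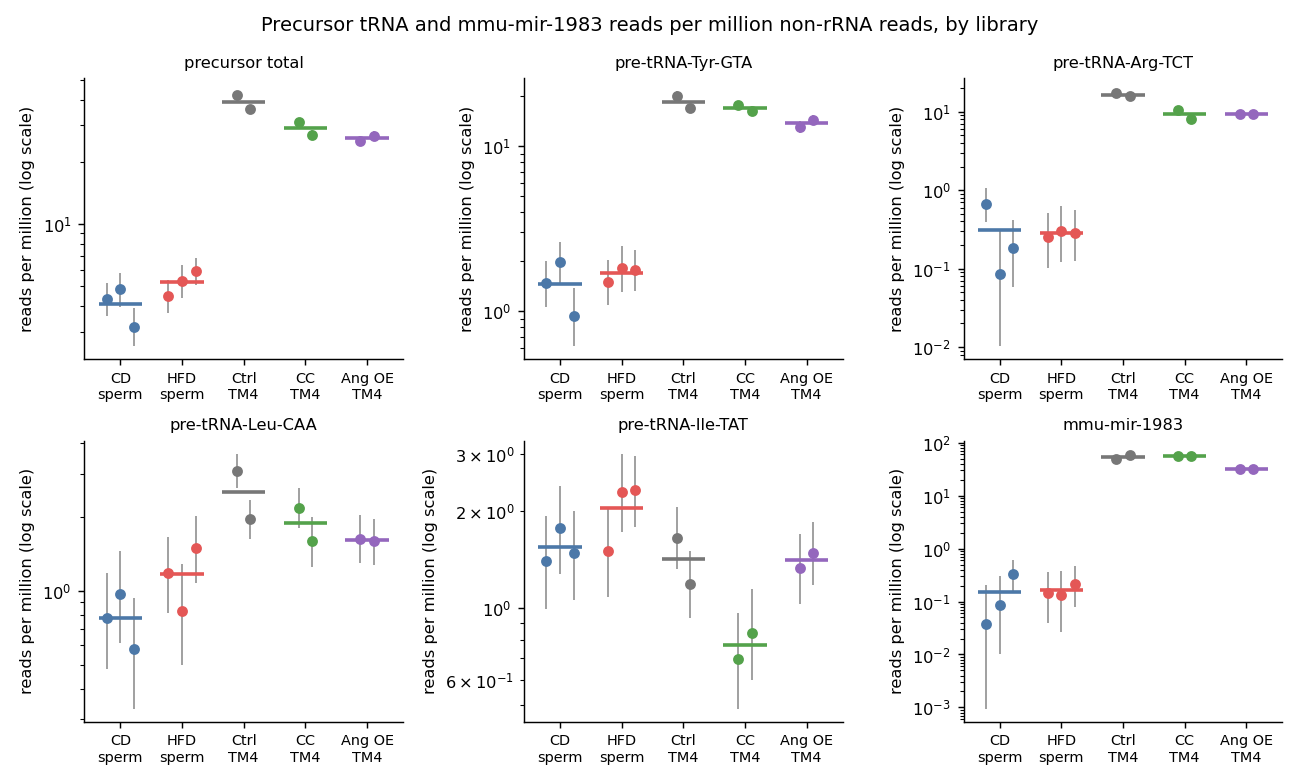
Levels in RPM, counted on clean reads other than rRNA (log axis, a scale of its own in each panel) for the precursor total, the 4 precursors and mmu-mir-1983. Points are libraries, horizontal lines group means, and vertical lines 95% exact Poisson intervals that cover counting error only. The total is lower in the 6 sperm libraries (3.18 to 5.89) than in the 6 TM4 libraries (25.2 to 42.1), whereas Ile-TAT overlaps between them.

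Mature tRNA reads went the other way between the sources. Reads of the mature tRNA class were 107544 to 165866 RPM in sperm and 22658 to 49568 RPM in TM4. Per 1000 mature tRNA reads, precursor reads numbered 0.0281, 0.0447 and 0.0192 with CD and 0.0329, 0.0372 and 0.0454 with HFD. The ratio was 1.53 and 1.58 in Ctrl, 1.14 and 1.00 in CC, and 0.687 and 0.538 in Ang OE cells. The mean ratio was 0.0346 ± 0.0101 in sperm and 1.08 ± 0.427 in TM4 (SD, n = 6 each), a 31.2-fold difference with no overlap (exact permutation test, two-sided, p = 0.00216, adjusted 0.00433). These means pool both diets and all TM4 treatments. The ratio sets precursor reads of 4 isoacceptors against mature reads of all 51, which are unlike sets. Against their own mature reads, Arg-TCT, Tyr-GTA and Leu-CAA did not overlap between the sources. Ile-TAT did, at 9.65 to 24.9 in sperm and 4.79 to 91.8 in TM4. Sperm and TM4 differ in tissue, culture and everything that goes with them, which cannot be told apart, nor can fewer cells of a type and less RNA per cell in bulk samples.

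The 4 precursors did not share the difference equally. An edgeR fit over the 12 libraries, added after the data were seen, tested 942 features, of which 89.7% passed an adjusted p of 0.05. Arg-TCT passed the filter on low counts through TM4 alone, where it is high, so its difference is given as a description with no p. The other 3, which passed the filter in both sources, all passed the test. The precursors of Tyr-GTA and Leu-CAA were lower in sperm (50.8% of all features were called lower) and that of Ile-TAT was higher (38.9% were called higher). Arg-TCT, Tyr-GTA and Leu-CAA lay lower in every sperm library than in every TM4 library, as did 41% of all features, while the libraries overlapped for Ile-TAT.

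The precursor of Arg-TCT, the tRNA that reads AGA codons, differed most. Sperm held 18, 2 and 5 reads (CD) and 7, 7 and 8 reads (HFD), that is 0.0844 to 0.665 RPM with a median of 0.268, and the 2 reads of the second CD library lie under the 3-read limit. TM4 held 856 and 941 (Ctrl), 544 and 384 (CC) and 457 and 505 reads (Ang OE), or 8.07 to 17.1 RPM. No sperm library came near a TM4 library. The fitted log2 difference, sperm minus TM4, was -5.22 (SE 0.31), while that of mature Arg-TCT was -1.85 (SE 0.18). Without the first CD library, which held the 18 reads, it was -5.83, and without single others -5.28 to -5.02. Per 1000 mature Arg-TCT reads, precursor reads numbered 2.06 to 20.2 in sperm and 54.9 to 158 in TM4.

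The precursor of Tyr-GTA, a tyrosine tRNA, gave 40, 47 and 26 reads in the CD libraries, 42, 42 and 50 in the HFD libraries and 647 to 1012 in TM4. Its levels were 0.939 to 1.98 RPM in sperm and 13.1 to 20.2 RPM in TM4, so the 2 sets did not overlap. The log2 difference was -3.37 (SE 0.19, edgeR adjusted p = 3.62e-10). Mature Tyr-GTA reads differed in the opposite direction, by 1.10 (SE 0.20). Per 1000 mature Tyr-GTA reads, precursor reads numbered 2.26 to 3.30 in sperm and 34.7 to 94.0 in TM4.

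The precursor of Leu-CAA, a long-armed tRNA that reads UUG codons, differed less. Sperm held 21, 23 and 16 reads (CD) and 33, 19 and 42 (HFD), or 0.578 to 1.50 RPM, and TM4 held 76 to 155 reads, or 1.60 to 3.10 RPM. The highest sperm library lay just under the lowest TM4 library. The log2 difference was -1.05 (SE 0.22, edgeR adjusted p = 0.000382), and it was -0.41 with DESeq2's own size factors (adjusted p = 0.0832, in a range of 2.70e-05 to 0.0832 over 19 alternatives). Mature Leu-CAA reads were higher in sperm by 1.24 (SE 0.21), or by 3.45 with genome-matched reads alone. Per 1000 mature Leu-CAA reads, matched and unmatched, the precursor gave 1.85 to 2.85 in sperm and 5.37 to 24.6 in TM4.

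The precursor of Ile-TAT, which reads AUA codons, was not lower in sperm. It gave 38, 42 and 41 reads in the CD libraries, 42, 53 and 65 in the HFD libraries, and in TM4 83 and 71 (Ctrl), 36 and 40 (CC) and 66 and 81 (Ang OE). Levels were 1.40 to 2.32 RPM in sperm and 0.696 to 1.66 RPM in TM4. The log2 difference was 0.62 (SE 0.19, edgeR adjusted p = 0.00626), but 0.30 with all clean reads as library size (adjusted p = 0.156, in a range of 2.14e-09 to 0.156 over 18 alternatives). Mature Ile-TAT reads were higher in sperm by 1.27 (SE 0.28, edgeR adjusted p = 0.000654), but by 0.24 with genome-matched reads alone (adjusted p = 0.329). Per 1000 mature Ile-TAT reads, matched and unmatched, the ranges overlapped, at 9.65 to 24.9 in sperm and 4.79 to 91.8 in TM4.

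These log2 differences stand against a median of -0.63 over all features, which DESeq2's own size factors moved to 0.02. Relative to that median the differences were -4.59 for Arg-TCT, -2.73 for Tyr-GTA, -0.42 for Leu-CAA and 1.25 for Ile-TAT.

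**Figure D2:**
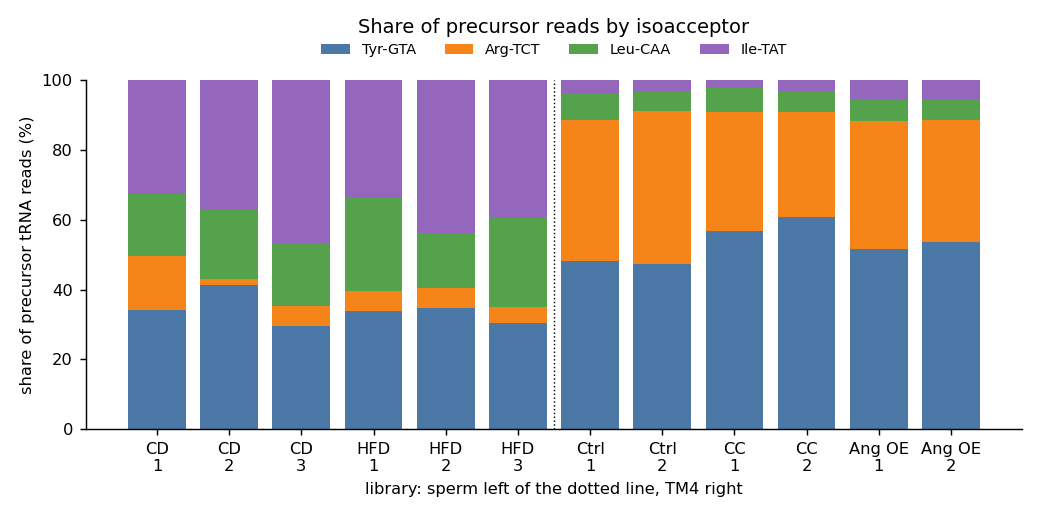
Share of precursor tRNA reads (%, stacked bars to 100) held by each of the 4 isoacceptors in each of the 12 libraries. Ile-TAT holds 32.5% to 46.6% of the reads in sperm and 2.24% to 5.57% in TM4, and Arg-TCT 1.75% to 15.4% in sperm and 30.0% to 44.0% in TM4.

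The make-up of the precursor reads differed accordingly, as the stacked bars by library show. Ile-TAT held between 32.5% (Wilson 95% interval 24.7 to 41.4) and 46.6% (36.5 to 56.9) of precursor reads in sperm and between 2.24% (1.62 to 3.09) and 5.57% (4.50 to 6.87) in TM4. Arg-TCT held between 1.75% (0.482 to 6.17) and 15.4% (9.96 to 23.0) in sperm and between 30.0% (27.6 to 32.6) and 44.0% (41.9 to 46.1) in TM4. Tyr-GTA held 29.5% to 41.2% in sperm and 47.2% to 60.9% in TM4, and Leu-CAA 15.7% to 26.6% against 5.47% to 7.36%. For each isoacceptor the 6 sperm libraries did not overlap the 6 TM4 libraries. The 4 shares of a library add up to its whole, so these are not 4 separate results. By RPM, 41% of all features lay lower in every sperm library. The shares are of reads and not per length, so they do not rank the isoacceptors' levels, and the intervals cover counting error only. PCR reads without molecular identifiers are not independent molecules.

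**Figure D3:**
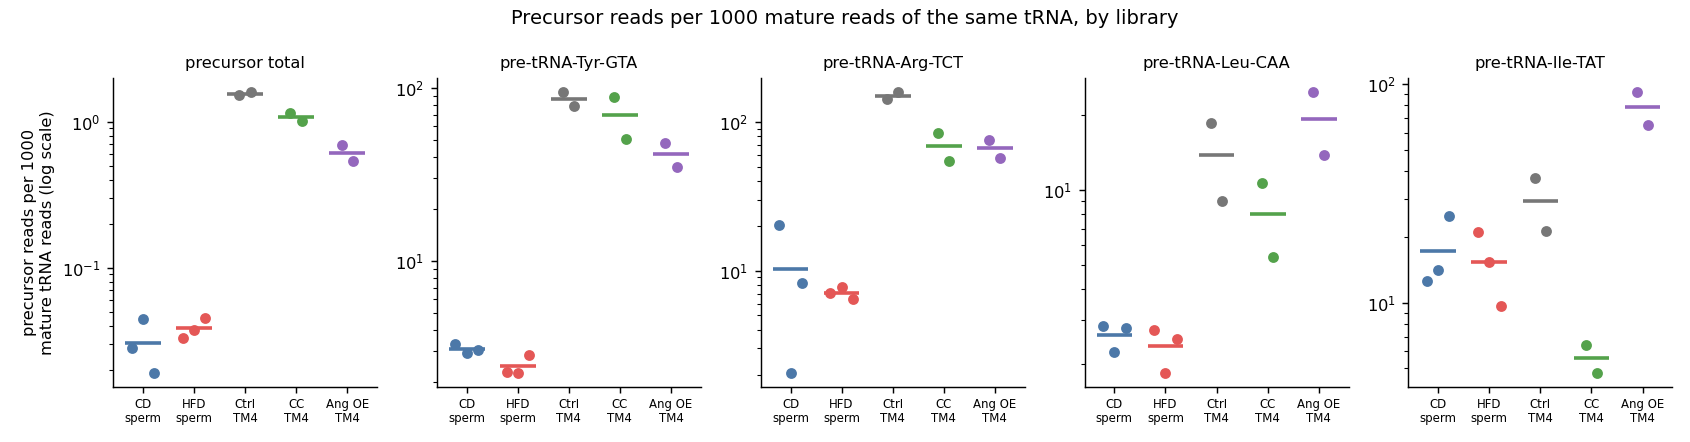
Precursor reads per 1000 mature tRNA reads (log axis, a scale of its own in each panel) for the class total and for each isoacceptor against its own mature reads. Points are libraries and lines group means. Tyr-GTA spans 2.26 to 3.30 in sperm and 34.7 to 94.0 in TM4, and Ile-TAT is lowest in CC (4.79 and 6.39) and highest in Ang OE (65.0 and 91.8).

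The microRNA row mmu-mir-1983, whose hairpin holds the chromosome 13 Ile-TAT gene printed above, is no member of the precursor classes and was chosen after its values were seen. It gave 1, 2 and 9 reads in the CD libraries and 4, 3 and 6 in the HFD libraries. In TM4 it gave 2414 and 3539 (Ctrl), 2949 and 2663 (CC) and 1548 and 1730 reads (Ang OE), or 31.2 to 59.4 RPM against 0.0369 to 0.325 RPM in sperm. The fitted log2 difference was -8.15 (SE 0.30), beside 0.62 for the Ile-TAT precursor row, and it is given with no p, since this row too passed the filter through TM4 alone. It was -8.81 without the third CD library, which held the 9 reads, and -8.27 to -7.91 without single others, and the 1, 2 and 3 reads of 3 sperm libraries lie at or under the 3-read limit. In TM4 its reads outnumbered those of the Ile-TAT precursor row in all 6 libraries, and in sperm they were fewer in all 6. The study's methods mapped reads to the tRNA databases before the microRNA database, and the row does not say which bases of the hairpin were read.

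HFD and CD sperm showed no precursor past the threshold. The total was 5.20 ± 0.720 RPM in HFD and 4.10 ± 0.838 RPM in CD (SD, n = 3 each), with overlapping libraries (exact permutation test, two-sided, p = 0.2, where 0.1 is the smallest p possible, and 0.267 adjusted). Per 1000 mature reads it was 0.0385 ± 0.00634 and 0.0306 ± 0.0130 (SD, n = 3 each, exact permutation p = 0.4). In edgeR the class total was higher in HFD by 0.34 on the log2 scale (SE 0.23, adjusted p = 0.619), with 0 of 36 class totals called (0%), or 3 (8.33%) without the second CD library.

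Of the 4 precursors, 3 had enough reads for the fit in sperm, and 0 of these 3 were called, as were 0 of all 729 features tested (0%; 85, or 11.7%, had an unadjusted edgeR p under 0.05, and DESeq2 called 1, or 0.137%, and 14, or 1.92%, with its own size factors). Without the second CD library edgeR called 19 of 725 features (2.62%), and with no filter 22 of 1317 (1.67%), with 0 precursors called in either. The log2 differences, HFD minus CD, were 0.61 for Leu-CAA (SE 0.34, edgeR adjusted p = 0.502), 0.40 for Ile-TAT (SE 0.29, adjusted p = 0.592) and 0.22 for Tyr-GTA (SE 0.32, adjusted p = 0.736). Their median of 0.40 stands beside 0.24 over all features, and TMM scaling moved the latter to -0.01. Relative to the median of all features, Leu-CAA was at 0.37, Ile-TAT at 0.15 and Tyr-GTA at -0.02. None of the 3 was higher in every HFD library than in every CD library, which 15.9% of all features were. Arg-TCT did not pass the filter, and its 18, 2 and 5 reads in CD and 7, 7 and 8 in HFD overlapped.

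In the same sperm libraries, 3 white blood cell microRNAs summed to 419 to 712 RPM in HFD and 279 to 333 RPM in CD, all 3 with reads in every library. Of all features, 15.9% were likewise higher in every HFD library. The sums of the germ cell, epithelial, smooth muscle and red blood cell microRNAs overlapped between the diets. The part of any of these cells in the precursor values was not tested.

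In TM4 cells, CC was accompanied by lower values of the Arg-TCT and Ile-TAT precursors, but edgeR called 0 of the 4 (0 of 811 features, 0%; 118, or 14.5%, had an unadjusted p under 0.05). Arg-TCT stood at 17.1 and 15.8 RPM in Ctrl and 10.5 and 8.07 RPM in CC, a log2 difference of -0.82 (SE 0.18, edgeR adjusted p = 0.158, unadjusted p = 0.00309). Ile-TAT stood at 1.66 and 1.19 RPM in Ctrl and 0.696 and 0.840 RPM in CC, a difference of -0.89 (SE 0.26, adjusted p = 0.236). Both were lower in each CC library than in each Ctrl library, as were 20.5% of all features.

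The other 2 precursors overlapped between the groups. Tyr-GTA stood at 20.2 and 17.0 RPM in Ctrl and 17.7 and 16.3 RPM in CC (log2 difference -0.13, SE 0.17), and Leu-CAA at 3.10 and 1.96 against 2.19 and 1.60 RPM (-0.41, SE 0.28, but -0.052 without the first Ctrl library and -0.71 without the second). The median over the 4 precursors was -0.62, against 0.02 over all features. DESeq2 called the Arg-TCT precursor lower, with an adjusted p of 0.0176, or 0.00982 with its own size factors, where it called 3.45% and 3.21% of all features. Without the first CC library edgeR called it too (adjusted p = 0.0431), in a fit that called 39 of 792 features (4.92%). Over the 15 alternatives run for this precursor, the adjusted p ranged from 0.00982 to 0.618.

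The precursor class total was 42.1 and 35.9 RPM in Ctrl and 31.1 and 26.8 RPM in CC, a log2 difference of -0.43 (SE 0.14, edgeR adjusted p = 0.173). One of 39 class totals was called (2.56%), and 0 or 1 without single libraries. The mature Ile-TAT row went the other way from its precursor, with 44.5 and 55.9 RPM in Ctrl and 109 and 175 RPM in CC, a log2 difference of 1.50 (SE 0.31, edgeR adjusted p = 0.158). It was called in 4 of its 15 alternatives, namely with DESeq2 (adjusted p = 0.00212, or 0.00740 with its own size factors), with the replicate numbers as a block (0.0252) and without the first CC library (0.0431), and the others reached up to 0.616. Per 1000 mature Ile-TAT reads the precursor accordingly stood at 37.3 and 21.3 in Ctrl and at 6.39 and 4.79 in CC. The mmu-mir-1983 row stood at 48.2 and 59.4 RPM in Ctrl and 57.0 and 55.9 RPM in CC (0.07, SE 0.17).

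In Ang OE cells 1 of the 4 precursors, Arg-TCT, was called lower, a share near that of all features (25.6% of 811 called, 13.9% lower). The precursor class total was also called lower and the mature tRNA class higher. Each of these 3 calls was lost when any 1 of the Ctrl or Ang OE libraries was left out, and both precursor calls were lost under TMM. Arg-TCT stood at 9.22 and 9.26 RPM in both Ang OE libraries against 17.1 and 15.8 RPM in Ctrl, a log2 difference of -0.83 (SE 0.18, edgeR adjusted p = 0.0222). Mature Arg-TCT reads gave 0.37 (SE 0.21, adjusted p = 0.217). Per 1000 of them, precursor reads were 143 and 158 in Ctrl and 75.7 and 56.7 in Ang OE cells.

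Tyr-GTA and Leu-CAA precursors were lower in each Ang OE library than in each Ctrl library, as Arg-TCT was and as 41.6% of all features were, but did not pass the test. Tyr-GTA stood at 13.1 and 14.3 RPM (log2 difference -0.44, SE 0.17, edgeR adjusted p = 0.0984) and Leu-CAA at 1.63 and 1.60 RPM (-0.64, SE 0.28, adjusted p = 0.132, but -0.28 without the first Ctrl library and -0.94 without the second). Ile-TAT stood at 1.33 and 1.49 RPM, within the Ctrl values, with a difference of -0.01 (SE 0.25, adjusted p = 0.983) whose sign changed under TMM, DESeq2's own size factors and all clean reads. The median over the 4 precursors was -0.54, against -0.21 over all features, which TMM scaling moved to 0.01. Relative to the median of all features, Arg-TCT was at -0.62, Leu-CAA at -0.43, Tyr-GTA at -0.23 and Ile-TAT at 0.20.

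The call on Arg-TCT was lost under TMM scaling, where the difference was -0.61 (adjusted p = 0.0541), and without any 1 of the Ctrl or Ang OE libraries, where the adjusted p was 0.0709 to 0.112 at differences of -0.89 to -0.77. Over its 15 alternatives the adjusted p ran from 0.00175 to 0.112, and 10 kept the call. Calls over all features split into 95 higher and 113 lower, and into 142 and 57 under TMM. They numbered 84 (10.4%) and 60 (7.61%) without the first or second Ctrl library, and 0 (0%) and 17 (2.12%) without the first or second Ang OE library, so the background share rests on these libraries too.

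**Figure D4:**
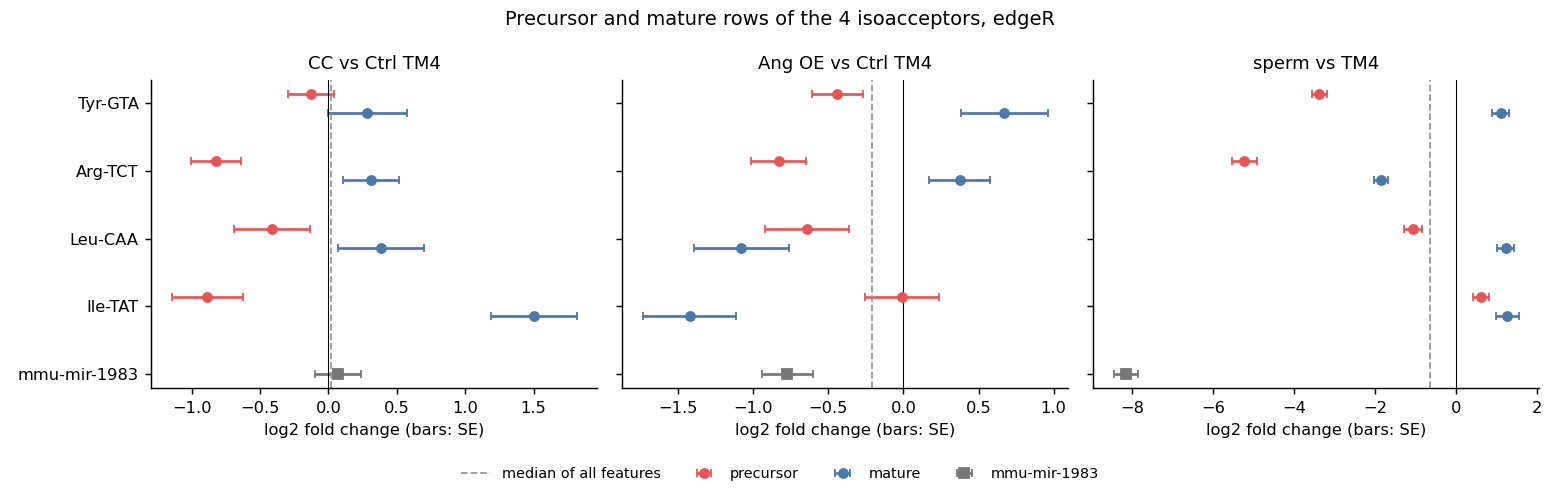
Log2 fold changes with standard errors (edgeR, horizontal axis with its own scale in each panel) of the precursor and mature rows of the 4 isoacceptors and of mmu-mir-1983. The dashed line marks the median of all features. In CC the precursor Ile-TAT lies at -0.89 and its mature row at 1.50, and in Ang OE at -0.01 and -1.42.

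The precursor class total was 25.2 and 26.7 RPM in Ang OE cells and 42.1 and 35.9 RPM in Ctrl, a log2 difference of -0.59 (SE 0.14, edgeR adjusted p = 0.0273). Of 39 class totals, 43.6% were called and 41% were called lower, and the median class total stood at -0.42, so that the precursor class lay 0.17 below it. The share called was 12.8% under TMM, 5.13% and 12.8% without the first or second Ctrl library, and 0% without either Ang OE library. With TMM over the class totals the difference was -0.28 (adjusted p = 0.149), and without any 1 of the Ctrl or Ang OE libraries the adjusted p was 0.0711 to 0.195, and 5 of 10 alternatives kept the call (0.00460 to 0.195). The mature tRNA class stood at 36772 and 49568 RPM in Ang OE cells and 27578 and 22658 RPM in Ctrl, higher by 0.78 (SE 0.18, adjusted p = 0.0273). Without any 1 of those 4 libraries that difference was 0.55 to 0.98 with an adjusted p of 0.0599 to 0.09996, and the other 6 alternatives kept the call (0.00392 to 0.0424).

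For 2 of the 4 isoacceptors the mature row was called lower in Ang OE cells, beside 13.9% of all 811 features called lower. Mature Ile-TAT stood at 14.5 and 22.9 RPM against 44.5 and 55.9 RPM in Ctrl (log2 difference -1.42, SE 0.31, edgeR adjusted p = 0.0213), and mature Leu-CAA at 66.5 and 115 RPM against 166 and 218 RPM (-1.08, SE 0.32, adjusted p = 0.0464). The Ile-TAT call was lost without the second Ctrl library or either Ang OE library (adjusted p 0.0549 to 0.125), and the Leu-CAA call without any 1 of those 4 libraries (0.0549 to 0.194), under TMM (0.112), with DESeq2's own size factors (0.0547) and with genome-matched reads alone (-0.41, adjusted p = 0.213). With the Ile-TAT precursor at Ctrl values, its reads per 1000 mature reads were 91.8 and 65.0, against 37.3 and 21.3 in Ctrl. The mmu-mir-1983 row fell from 48.2 and 59.4 RPM to 31.2 and 31.7 RPM (-0.77, SE 0.17, edgeR adjusted p = 0.0204), a call lost without the second Ctrl library or either Ang OE library (0.0857 to 0.139). Germ cell microRNAs summed to 1195 and 1334 RPM in Ang OE cells and 591 and 609 RPM in Ctrl, with 4 or 5 of 6 detected, and the muscle pair mir-143 and mir-145a to 61711 and 79792 against 29770 and 31248 RPM. The red blood cell microRNAs summed to 584 and 547 RPM in Ang OE, 579 and 547 in CC and 806 and 822 in Ctrl. Their part in these values was not tested. The study's methods name a batch correction for the cell line data without naming the batches, so a batch and the treatments cannot be told apart.

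Of other RNA polymerase III transcripts, the tables name the Y RNAs RNY1 and RNY3 and 5S rRNA. Neither Y RNA was called in HFD against CD, CC against Ctrl or Ang OE against Ctrl, where 0%, 0% and 25.6% of all features were called. In Ang OE cells RNY1 gave 0.09 (SE 0.23) and RNY3 -0.41 (SE 0.21, edgeR adjusted p = 0.195) on the log2 scale. Between sperm and TM4, RNY3 was higher in sperm by 2.20 (SE 0.15, edgeR adjusted p = 3.35e-09), at 318 to 477 RPM against 68.9 to 133 RPM, and RNY1 gave 0.32 (SE 0.16, adjusted p = 0.0689). Of all features, 38.9% were called higher in sperm. 5S rRNA stood at 7649 to 13917 RPM of all clean reads, rRNA included, in sperm and 2747 to 4617 in TM4.

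Mature mitochondrial tRNAs, cut out of long mitochondrial transcripts, had 22 rows tested. In Ang OE cells 1 was called higher and 6 lower, with a median log2 difference of -0.58, beside 11.7% of all features called higher, 13.9% lower and a median of -0.21. In CC and in HFD sperm 0 of 22 were called, with medians of -0.24 and 0.32, beside 0 of all 811 and 0 of all 729 features called and medians of 0.02 and 0.24. Of the mature nuclear rows, 5 of 51 were called higher and 11 lower in Ang OE cells (median 0.03, beside the same shares). In CC 0 of 51 (median 0.41) and in HFD sperm 0 of 50 (median 0.54) were called, where no other feature was called either.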

How the data were processed

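The authors trimmed adapters with Trimmomatic 0.40 after FastQC 0.12.0 (versions from the submitters' processing notes) and annotated reads with the SPORTS pipeline, one database after another, on mm10. They deposited per library a summary of estimated counts per class and subclass, not normalized. Precursor rows were taken from these, rounded to whole numbers, and divided by clean reads minus rRNA reads, the denominator of the study's methods. All precursor reads were listed as genome-matched. Totals were compared with exact permutation tests (Python 3.11.15). All features, which nest (end rows lie within tRNA rows), were fitted with edgeR 4.0.16 in R 4.3.3 (quasi-likelihood, Benjamini-Hochberg over all features, called at 0.05) after keeping those with 10 reads in 3 sperm or 2 TM4 libraries. The 6 TM4 libraries shared one fit, and class totals were fitted apart. DESeq2 1.42.0 and other scalings, filters and left-out libraries were alternatives. The fit was tested on simulated data. Intron-bearing genes were found in GRCm39 by the B box letters GTTCGANNC followed by 12 bases, on both strands, with 7 acceptor and 5 anticodon stem pairs, at RefSeq gene lengths, since no mm10 sequence was used here. Replicate numbers were not taken as pairs. Named rows were the totals, the 5 highest in each source and all of the intron-bearing families. Nothing says TM4 libraries came from separate cultures, so p-values measure only the spread between libraries. The members and lists were chosen with earlier results of these data known.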

Additional observations from a re-analysis of the deposited data

How the results depend on the processing

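The differences in precursor totals between sperm and TM4 kept their direction under all alternatives run and passed the threshold in each that gave a p (adding a group's reads together gave none), at log2 ratios of -3.08 to -2.65 for RPM and -5.26 to -4.82 per mature read. HFD and CD sperm totals gave log2 ratios of 0.19 to 0.47 (RPM) and 0.08 to 0.71 (per mature read) without single libraries. Their exact test could not pass the threshold in any setting, since its smallest p is 0.1 and leaving a library out does not lower that. The edgeR class total, which could pass, stayed uncalled over its 10 alternatives (adjusted p 0.387 to 0.939). In Ang OE cells, the 1 called precursor became 0 under TMM and without any 1 of the Ctrl or Ang OE libraries (0 to 1 over the left-out libraries), and the class total gave -0.28 under TMM and -0.70 to -0.47 without single libraries. In CC cells, 0 called precursors became 1 with DESeq2 under both size factors and 0 to 1 without single libraries. The Ile-TAT precursor turned in Ang OE cells to 0.21 under TMM, 0.14 with DESeq2's own size factors and 0.0056 with all clean reads, and ran from -0.23 to 0.24 without single libraries. Without single libraries the Tyr-GTA precursor ran from -0.019 to 0.50 in HFD and -0.25 to 0.0036 in CC, where mature Tyr-GTA ran from -0.11 to 0.59 and mmu-mir-1983 from -0.072 to 0.23. For these changes the cause was not tested. With 1 library left in a TM4 group, it was assumed to vary like the other groups. No label says that the replicate numbers pair libraries. Same-numbered libraries' deviations correlated at -0.07, -0.02 and 0.11 in sperm, and in TM4 at 0.64 between Ctrl and CC, -0.19 between Ctrl and Ang OE and 0.02 between CC and Ang OE, so a pairing of Ctrl with CC was not settled. With the numbers as a replicate block, the precursors called stayed at 0, 0 and 1 in HFD, CC and Ang OE, calls over all features were 17, 5 and 219, the HFD total gave 0.35, and mature Ile-TAT in CC was called (adjusted p = 0.0252). With no mitochondrial precursor reads, no alternative could be computed for that class. Counts of 2 to 65 reads per sperm library limit what these precursors can show there.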
